A study of Homo sapiens with 15 samples.

Results

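The comparison described here sets PSN-1 cells given SBI-477, which the labels call a MondoA inhibitor, against PSN-1 cells given the vehicle DMSO. PSN-1 is an established cell line from human pancreatic ductal adenocarcinoma (PDAC). The members were chosen by treatment label: 3 DMSO and 3 SBI477 libraries, 6 of the 15 libraries in the series, the other 9 coming from an siRNA experiment that was not used. Both groups were cultured in RPMI with fetal bovine serum and antibiotics and were exposed for 72 hours, and they differ only in the agent. The labels state no dose of SBI-477, no genotype change and no separate cultures behind the replicate numbers, so every p-value reflects only how far these libraries spread, and that spread may be technical. PSN-1 is 1 line, and the labels describe no second line and no second inhibitor. The quantity measured was the number of RNA-seq reads per gene, given here as CPM, the count scaled to the size of the library and comparable between libraries but not between genes of different length. The libraries held 23315440 to 30480362 counts, and 3 counts corresponded to 0.0984 to 0.129 CPM.

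MondoA, encoded by MLXIP, is a transcription factor that pairs with MLX and responds to glucose 6-phosphate and related sugars. The MondoA:MLX pair, like its paralogue ChREBP (encoded by MLXIPL), binds the carbohydrate response element (ChoRE), a pair of CACGTG-like boxes with a short spacer. Its best known targets are TXNIP and ARRDC4, arrestin-domain proteins that limit glucose uptake. SBI-477 was described as a small molecule that inactivates MondoA, lowers expression of TXNIP and ARRDC4 and raises glucose uptake in muscle cells. The same network holds MYC, MAX and the MXD repressors. Sterol response element binding proteins, encoded by SREBF1 and SREBF2, drive the genes of fatty acid and cholesterol synthesis and are held in the endoplasmic reticulum by the INSIG proteins when sterols are plentiful.

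The 250 bases before the RefSeq start site of TXNIP, ARRDC4 and SREBF2 are shown because these genes stand for the groups of target genes described first, and they fell together in the comparison below. Sequences are from RefSeq on GRCh38.p14, written 5′ to 3′ on the strand of the gene. Capitals in TXNIP (chr1:145996580-145996829, minus strand) mark a match to the ChoRE letters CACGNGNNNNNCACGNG. Capitals in ARRDC4 (chr15:97960453-97960702, plus strand) mark 3 matches to the single 6-letter box CACGNG, 2 of them overlapping on opposite strands, since no full ChoRE match was found there. Capitals in SREBF2 (chr22:41832855-41833104, plus strand) mark a match to the sterol response element letters TCACNCCAC.
TXNIP: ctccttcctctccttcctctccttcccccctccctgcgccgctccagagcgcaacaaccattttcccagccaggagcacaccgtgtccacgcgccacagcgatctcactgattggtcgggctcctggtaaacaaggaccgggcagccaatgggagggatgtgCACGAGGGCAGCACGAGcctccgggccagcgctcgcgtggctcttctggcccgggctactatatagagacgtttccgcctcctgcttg
ARRDC4: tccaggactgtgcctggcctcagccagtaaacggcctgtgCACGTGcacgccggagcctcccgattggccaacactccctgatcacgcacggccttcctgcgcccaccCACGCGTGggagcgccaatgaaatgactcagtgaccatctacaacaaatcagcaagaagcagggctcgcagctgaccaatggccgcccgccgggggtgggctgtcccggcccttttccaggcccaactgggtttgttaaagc
SREBF2: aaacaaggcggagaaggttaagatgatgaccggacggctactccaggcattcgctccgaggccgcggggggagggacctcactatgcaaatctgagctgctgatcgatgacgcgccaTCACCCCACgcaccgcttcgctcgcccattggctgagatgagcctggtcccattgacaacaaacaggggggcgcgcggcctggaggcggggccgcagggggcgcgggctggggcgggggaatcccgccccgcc
Both strands were searched from 250 bases before to 50 bases after the start in 27305 promoters. The full ChoRE letters were found in 20 of these promoters (0.073%), and the match in TXNIP begins 88 bases before the start. The sterol element letters were found in 313 promoters (1.1%), beginning 133 bases before the start in SREBF2, and the single box in 8303 (30.4%). The single box is contained in each box of the ChoRE letters. A match describes letters only and is not a measured binding site.

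The replicate 2 libraries stood apart from their labels. On log2 CPM, SBI477 replicate 2 correlated at 0.9922 and 0.9894 with DMSO replicates 1 and 3 and at 0.9807 and 0.9767 with SBI477 replicates 1 and 3. DMSO replicate 2 correlated at 0.9807 and 0.9827 with SBI477 replicates 1 and 3, against 0.9651 and 0.9552 with DMSO replicates 1 and 3. In the plot of principal components, the first component held 61.8% of the variance, and on it DMSO replicate 2 (28.1) lay beside SBI477 replicates 1 and 3 (9.92 and 17.9), while SBI477 replicate 2 (-15.3) lay beside DMSO replicates 1 and 3 (-16.3 and -24.3). The second component, with 19% of the variance, set DMSO replicate 2 (-18.3) apart from every other library. Libraries are named by their labels throughout, and results are given both for all 6 libraries as labelled and for replicates 1 and 3 alone.

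**Figure D1:**
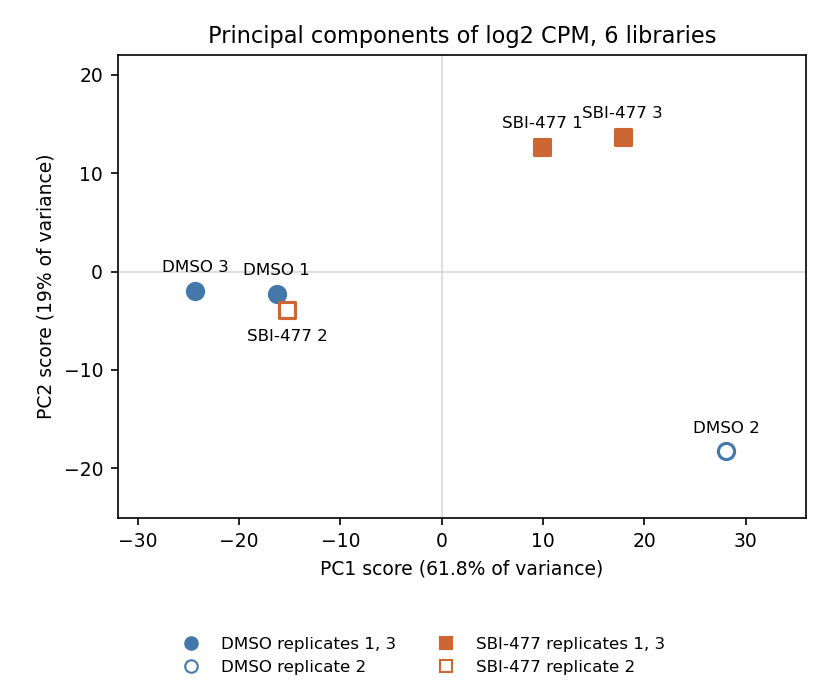
Principal components of log2 CPM over 10993 genes, with 1 point per library, PC1 on the horizontal axis and PC2 on the vertical axis, both in component units with the share of variance in the label. DMSO replicate 2 lies on the side of SBI477 replicates 1 and 3 along PC1, and SBI477 replicate 2 lies with DMSO replicates 1 and 3.

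The authors' deposited table holds a comparison of its own, with 1547 genes higher (10.6%) and 1394 lower (9.51%) in SBI477 at an adjusted p under 0.05, of 14656 tested, or 20.1% in all. Refitting the deposited counts with DESeq2 gave back the log2 fold changes of the authors' deposited table only with the replicate 2 libraries exchanged between the groups, when 13086 of 13086 genes agreed within 0.001. With the labels as given, 37 of these 13086 genes did so and the median absolute difference was 0.196. The other 8 exchanges of 1 library per group left median absolute differences of 0.117 to 0.335. The deposited comparison and the labels of the count columns therefore assign the replicate 2 libraries to opposite groups, and which of them holds the cells given SBI-477 cannot be told from these files.

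As labelled, no gene passed. Of 14023 genes tested over all 6 libraries with edgeR's quasi-likelihood test, 0 had an adjusted p under 0.05 (0%), the smallest adjusted p was 0.9999, and 409 genes (2.92%) had an unadjusted p under 0.05. DESeq2 also called 0 genes, with 453 at an unadjusted p under 0.05. TXNIP was at 129.6 ± 83.7 CPM with DMSO and 79.1 ± 40.03 CPM with SBI-477 (SD, n = 3), with a log2 fold change of -0.71 ± 0.57 and an edgeR adjusted p of 1. HSD11B1 was at 4.56 ± 5.73 CPM with DMSO and 9.02 ± 6.61 CPM with SBI-477 (SD, n = 3), with a log2 fold change of 1.01 ± 0.98 and an edgeR adjusted p of 1. PCK1, at 39.8 ± 29.4 CPM with DMSO and 8.05 ± 8.02 CPM with SBI-477, and LCN2, at 17.5 ± 10.9 CPM with DMSO and 8.55 ± 9.92 CPM with SBI-477 (SD, n = 3), also had edgeR adjusted p-values of 1. The groups overlapped for each of these 4 genes, in each case through the replicate 2 libraries.

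In replicates 1 and 3 alone, with 2 libraries a group, 1291 of 14232 genes were called higher with SBI-477 (9.07%) and 1284 lower (9.02%) at an edgeR adjusted p under 0.05, 2575 in all (18.1%). The falls were larger than the rises: 355 of the called genes were at least 2-fold lower and 117 at least 2-fold higher. The median log2 fold change over all genes tested was -0.01. The shares of 9.07% higher and 9.02% lower are the reference for every count of list members called in these 4 libraries. From here, "rose" and "fell" refer to calls in these 4 libraries, and each log2 fold change is SBI477 over DMSO with its standard error, as are the values in parentheses after levels and the amounts by which genes rose or fell. Leaving out DMSO replicate 1 gave 4319 calls, leaving out SBI477 replicate 3 gave 1194, and the arm left with 1 library was then assumed to vary like the other. With 2 libraries a group, 63.9% of all genes tested had groups that did not overlap, so lack of overlap in these 4 libraries says little by itself.

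The replicate 2 pair, which shares no library with that fit, went the opposite way by its labels. Of the 1291 genes that rose, 1177 (91.2%) were lower in SBI477 replicate 2 than in DMSO replicate 2, with a median log2 difference of -0.40. Of the 1284 genes that fell, 1194 (93%) were higher in SBI477 replicate 2, with a median of 0.55. Over all genes tested, 51.9% were higher in SBI477 replicate 2 and 48.1% lower. The pair is 1 library against 1 and was not tested. The log2 fold changes in the authors' deposited table, which shares replicates 1 and 3 with that fit, were -1.59 for TXNIP, -3.24 for PCK1, 3.18 for HSD11B1 and -2.66 for LCN2.

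**Figure D2:**
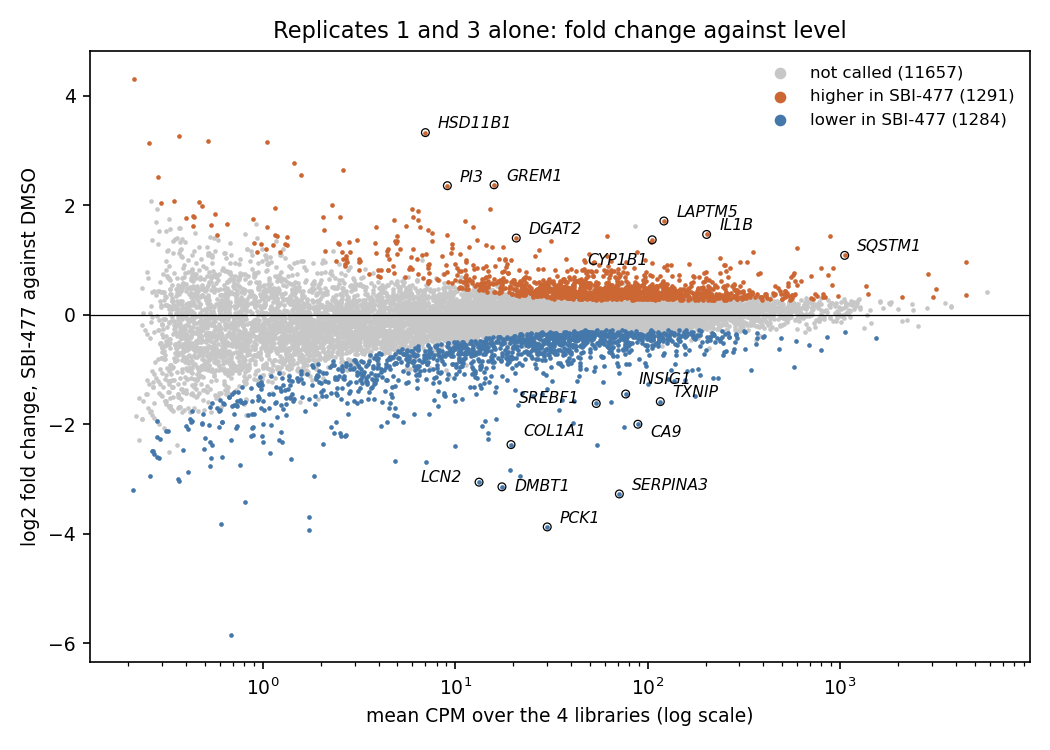
Log2 fold change of SBI477 over DMSO in replicates 1 and 3 (vertical axis) against mean level in CPM (horizontal axis, log scale), with 1 point per gene tested and called genes coloured. The 355 genes at least 2-fold lower outnumber the 117 at least 2-fold higher, and among genes of moderate level PCK1, SERPINA3, LCN2 and DMBT1 lie lowest and HSD11B1 highest.

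Known targets of MondoA and ChREBP fell more often than they rose. Of 16 measured members of 18 listed, 10 fell and 1 rose, beside 9.02% and 9.07% of all genes tested, and the median log2 fold change was -0.40. TXNIP (chr1:145992435-145996600, minus strand, GRCh38), which binds thioredoxin and promotes removal of glucose transporters from the cell surface, was at 145, 39.2 and 204 CPM in DMSO replicates 1, 2 and 3 and at 74.6, 121 and 41.5 CPM in SBI477 replicates 1, 2 and 3. It was lower in SBI477 replicates 1 and 3 than in DMSO replicates 1 and 3, and in replicate 2 the order was the opposite. The log2 fold change in replicates 1 and 3 was -1.58 ± 0.24 (edgeR adjusted p 0.00389). ARRDC4 (chr15:97960698-97973838, plus strand), the closest relative of TXNIP in this role, was at 15.4, 7.26 and 18.8 CPM with DMSO and 8.21, 13 and 5.44 CPM with SBI-477, and fell with a log2 fold change of -1.31 ± 0.20 (edgeR adjusted p 0.00391). The arrestin-domain gene ARRDC3 fell by 0.80 ± 0.15 on the log2 scale. ARRDC2 fell by 0.33 ± 0.09, with an edgeR adjusted p of 0.0371, and lost its call without DMSO replicate 3, SBI477 replicate 1 or SBI477 replicate 3.

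Targets outside the arrestin family moved with them. PDK4, a kinase that keeps pyruvate out of the citric acid cycle by inhibiting pyruvate dehydrogenase, was at 14, 9.43 and 19 CPM with DMSO and 8.24, 10.5 and 7.43 CPM with SBI-477 (log2 fold change -1.07 ± 0.18, edgeR adjusted p 0.00511). HBP1, a repressor of cell cycle genes, was at 28.3, 17.2 and 39.9 CPM with DMSO and 20.3, 23 and 18.6 CPM with SBI-477 (-0.81 ± 0.15, edgeR adjusted p 0.00898). For both genes all 3 SBI477 libraries and DMSO replicate 2 lay below DMSO replicates 1 and 3. NRBP2 fell with a log2 fold change of -0.97, PFKFB2, which makes the glycolysis activator fructose 2,6-bisphosphate, with -0.52, and TRIB3 and KLF10 with -0.40 and -0.39. AGPAT2, an enzyme of triglyceride synthesis, was the single riser at 0.44 ± 0.10. The calls of ARRDC2, KLF10, TRIB3 and AGPAT2 were lost without SBI477 replicate 1 or replicate 3 or both, and leaving out 1 library gave 7 to 9 falls and 0 to 2 rises in the list. HK2 did not pass, at 216, 258 and 213 CPM with DMSO and 246, 222 and 252 CPM with SBI-477 and a log2 fold change of 0.22 ± 0.08 (edgeR adjusted p 0.0864).

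**Figure D3:**
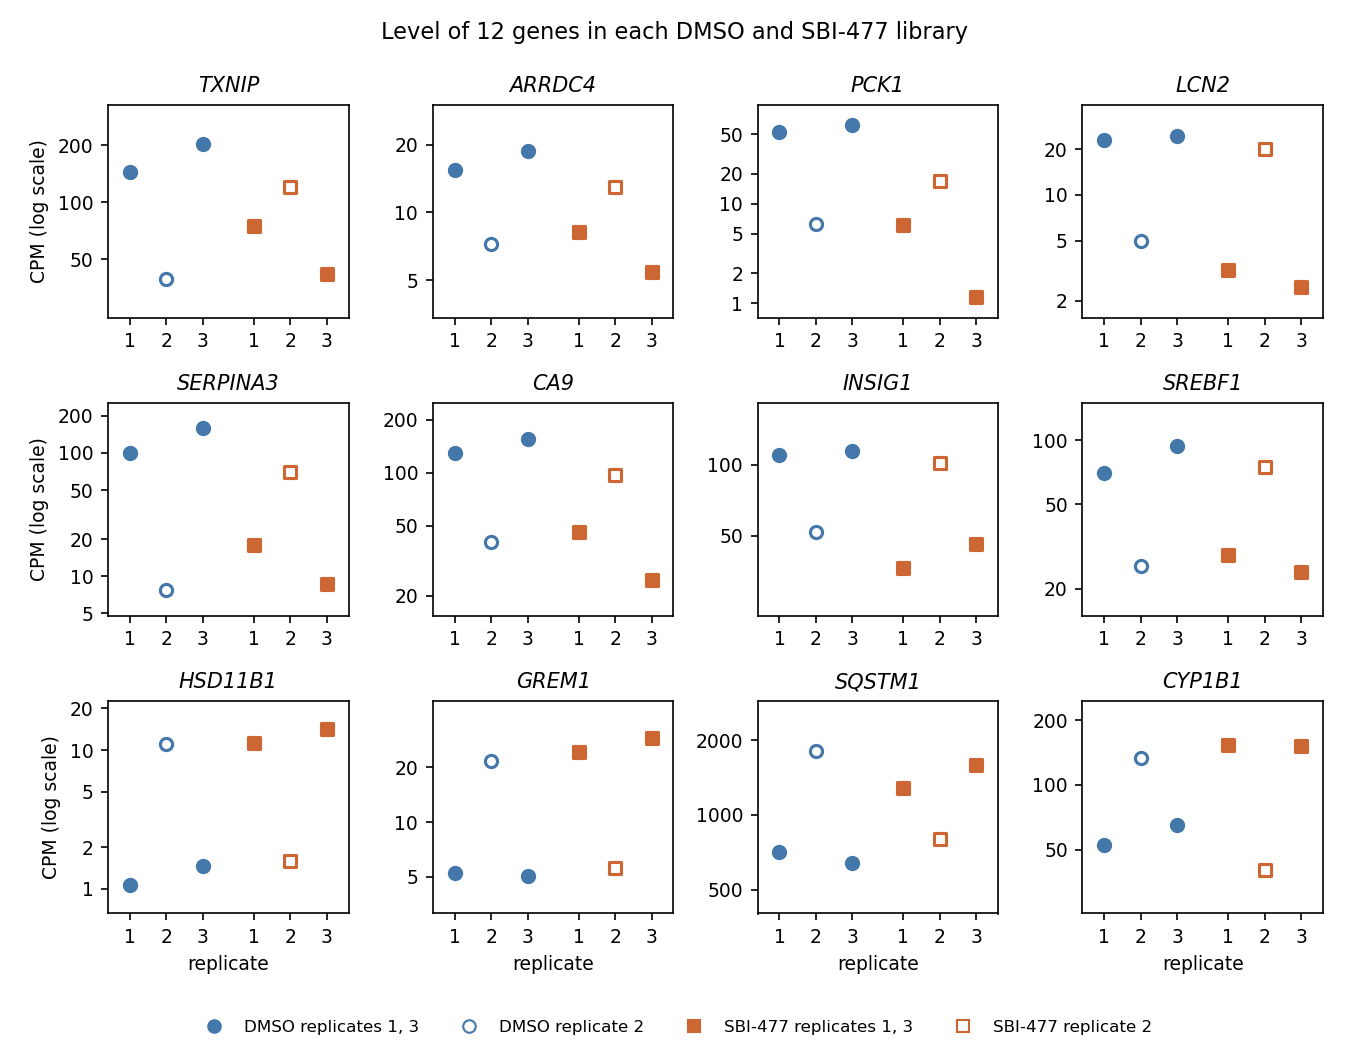
Level in CPM (vertical axes, log scale) of single genes in each of the 6 libraries, grouped by label on the horizontal axis and numbered by replicate. In all 12 genes shown, DMSO replicate 2 (open circle) lies nearer to SBI477 replicates 1 and 3 than to the other DMSO libraries.

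Among the 14 tested genes with the full ChoRE letters in their promoter window, 3 fell (TXNIP, TIGD1 and P4HA1) and 1 rose (KCTD5). That is 21.4% and 7.1%, against 8.7% and 9.4% of the 10354 tested genes with a window. The median log2 fold change was 0.028 over these 14 genes and 0.005 over the 10354, so the set as a whole was not lower. TXNIP is also a marker given with the comparison. Among 4323 tested genes with the single box, 8.8% fell and 10.6% rose. Among 108 tested genes with the sterol element letters, 10 fell and 9 rose (9.3% and 8.3%). ChoRE and sterol element letters were each found in 1 of the promoters available for the target list (13 genes) and the cholesterol list (14 genes), namely the TXNIP and SREBF2 sequences printed above. In the fatty acid list the sterol element letters were in 1 of 17 promoters, that of MID1IP1, which did not pass (log2 fold change -0.05 ± 0.11).

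The transcription factors of the network themselves changed unevenly. MLXIP, which encodes MondoA, was at 78, 74.9 and 80.8 CPM with DMSO and 70.4, 81.8 and 67.3 CPM with SBI-477 and did not pass (log2 fold change -0.20 ± 0.09, edgeR adjusted p 0.128). MLXIPL, which encodes ChREBP, was at 6.05, 4.3 and 8.05 CPM with DMSO and 2.02, 6.86 and 1.59 CPM with SBI-477, and fell with a log2 fold change of -1.95 ± 0.24 (edgeR adjusted p 0.00178). MLX rose by 0.29 ± 0.09, and MXI1 and MNT, repressors of MYC targets, fell with log2 fold changes of -0.61 and -0.35, while MXD1 rose by 0.52. MYC was at 883, 718 and 723 CPM with DMSO and 654, 907 and 719 CPM with SBI-477, with a log2 fold change of -0.22 ± 0.11 that did not pass (edgeR adjusted p 0.183). In all, 2 of the 12 measured members rose and 3 fell. The calls of MLX, MNT and MXD1 were lost without SBI477 replicate 1 and without SBI477 replicate 3, which left 0 rises.

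Among gluconeogenic genes only PCK1 passed, of 9 measured members. PCK1 (chr20:57561080-57568112, plus strand), the cytosolic phosphoenolpyruvate carboxykinase that commits oxaloacetate to glucose or glycerol synthesis, was at 51.9, 6.26 and 61.1 CPM in DMSO replicates 1, 2 and 3 and at 6.16, 16.8 and 1.15 CPM in SBI477 replicates 1, 2 and 3. Its log2 fold change was -3.87 ± 0.40 (edgeR adjusted p 0.000906), and no gene averaging 4 CPM or more fell further. SBI477 replicate 2 lay between the groups for this gene, at 16.8 CPM, and DMSO replicate 2 lay at the level of SBI477 replicate 1. Leaving out DMSO replicate 1 raised the falls in this list to 3 and gave 1 rise.

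Of 22 measured genes of glucose uptake and glycolysis, 3 rose (13.6%) and 2 fell (9.09%), beside 9.07% and 9.02% of all genes tested. ALDOC, an aldolase isoform, fell from a mean of 41.6 to 21.6 CPM (-0.94 ± 0.12, edgeR adjusted p 0.00201), and the glucose transporter SLC2A3 from 31.8 to 18.3 CPM (log2 change -0.79 ± 0.17, edgeR adjusted p 0.015). PKM and TPI1 rose by 0.36 and 0.29, and none of the 3 rises in the list was called without SBI477 replicate 1, without SBI477 replicate 3 or with the replicate number as a block. Without DMSO replicate 1, 4 members fell.

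Of 18 measured genes known to respond to hypoxia, 8 fell and 2 rose, with a median log2 fold change of -0.37. CA9, the surface carbonic anhydrase used as a hypoxia marker, was at 129, 40.4 and 156 CPM with DMSO and 46.3, 97.4 and 24.6 CPM with SBI-477, and its log2 fold change was -1.997 ± 0.23 (edgeR adjusted p 0.0014). PDK1 fell with a log2 fold change of -0.88 ± 0.10, and the mitophagy receptor BNIP3L with -0.89 ± 0.11. ANGPTL4, a secreted inhibitor of lipoprotein lipase, went the other way, at 64.4, 182 and 53.8 CPM with DMSO and 133, 69.6 and 164 CPM with SBI-477 (1.33 ± 0.13, edgeR adjusted p 0.000628). VEGFA also rose, by 0.47 ± 0.08. Without SBI477 replicate 3 the number of falls was 4. Oxygen was not recorded in the labels, and whether it differed between the cultures was not tested.

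In cholesterol synthesis and uptake, whose genes are targets of the sterol response element binding proteins, 9 of 20 measured members fell and 1 rose, with a median log2 fold change of -0.34. INSIG1 (chr7:155297776-155310235, plus strand), the sterol-sensing anchor of these factors and itself one of their targets, was at 110.3, 51.6 and 115 CPM in DMSO replicates 1, 2 and 3 and at 36.5, 102 and 46.2 CPM in SBI477 replicates 1, 2 and 3. DMSO replicate 2 and SBI477 replicates 1 and 3 were the 3 low libraries. Its log2 fold change was -1.44 ± 0.12 (edgeR adjusted p 0.000309). STARD4, a carrier of free cholesterol, was at 60.3, 23.6 and 60.1 CPM with DMSO and 24.5, 50.3 and 27.8 CPM with SBI-477 (-1.20 ± 0.10, edgeR adjusted p 0.000301). SREBF2 was at 138, 84 and 160.4 CPM with DMSO and 82.7, 133 and 97.3 CPM with SBI-477 (-0.73 ± 0.11, edgeR adjusted p 0.00373). The number of rises was 0 without SBI477 replicate 3, and the number of falls was 5 without SBI477 replicate 1.

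In fatty acid and triglyceride synthesis, 5 of 19 measured members fell and 3 rose. SREBF1 (chr17:17810399-17837002, minus strand) was at 69.8, 25.7 and 93.6 CPM in DMSO replicates 1, 2 and 3 and at 29, 74.8 and 24 CPM in SBI477 replicates 1, 2 and 3, with a log2 fold change of -1.62 ± 0.15 (edgeR adjusted p 0.000548). SBI477 replicate 2 lay among DMSO replicates 1 and 3, and DMSO replicate 2 among SBI477 replicates 1 and 3. SCD, the stearoyl-CoA desaturase, fell from 758 to 390.3 CPM (log2 change -0.96 ± 0.12, edgeR adjusted p 0.00159), and the acyl-CoA synthetase ACSL3 fell by 0.57 ± 0.09. DGAT2, which adds the final acyl chain of triglyceride, rose and was at 10.8, 27.3 and 12 CPM with DMSO and 27.7, 11.1 and 32.7 CPM with SBI-477 (1.40 ± 0.13, edgeR adjusted p 0.000548). The direction was thus not uniform along the pathway, and AGPAT2 rose too.

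Acute phase and mucosal defence genes held several of the largest falls. Of 21 measured members of 30 listed, 7 fell, each at least 2-fold, and 4 rose. LCN2 (chr9:128149071-128153455, plus strand), a secreted protein that binds bacterial siderophores, was at 23, 5 and 24.5 CPM in DMSO replicates 1, 2 and 3 and at 3.18, 20.004 and 2.48 CPM in SBI477 replicates 1, 2 and 3. Its log2 fold change of -3.06 ± 0.16 had the smallest edgeR adjusted p of all genes, 9.97e-05, and SBI477 replicate 2 lay near the other DMSO libraries while DMSO replicate 2 lay near the other SBI477 libraries. SERPINA3, a serum protease inhibitor, was at 99.4, 7.65 and 159.5 CPM with DMSO and 17.8, 69.6 and 8.67 CPM with SBI-477 (-3.27 ± 0.30, edgeR adjusted p 0.000551), and DMBT1, a mucosal scavenger receptor, at 25.8, 3.22 and 37.2 CPM with DMSO and 4.82, 19.96 and 2.12 CPM with SBI-477 (-3.14 ± 0.29, edgeR adjusted p 0.000628). The copper carrier CP fell with a log2 fold change of -2.04 ± 0.23. PI3, the elastase inhibitor elafin, rose from 2.95 to 15.3 CPM (log2 change 2.36 ± 0.27, edgeR adjusted p 0.00134). Leaving out DMSO replicate 1 raised the falls to 12, and leaving out DMSO replicate 3 raised the rises to 7.

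The fibrinogen chains fell as well. FGB was at 8.08, 0.608 and 16.5 CPM with DMSO and 2.77, 10.6 and 0.929 CPM with SBI-477 (-2.68 ± 0.43, edgeR adjusted p 0.00496) and FGG at 21.4, 1.96 and 46.4 CPM with DMSO and 7.52, 19.8 and 1.55 CPM with SBI-477 (-2.84 ± 0.51, edgeR adjusted p 0.00718). FGA, added after its values were seen, was at 1.96, 0.13 and 4.58 CPM with DMSO and 0.547, 2.33 and 0.265 CPM with SBI-477, with a log2 fold change of -2.95 ± 0.50 (edgeR adjusted p 0.006). For each of these genes DMSO replicate 3 was more than 2-fold above DMSO replicate 1, so their baseline levels varied within the vehicle group.

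Cytokine and interferon genes moved both ways. Of 18 measured NF-kB targets and cytokines, 4 rose and 2 fell. IL1B was at 77.5, 258 and 138 CPM with DMSO and 271, 68.5 and 325 CPM with SBI-477 (1.47 ± 0.21, edgeR adjusted p 0.00329) and IL11 rose from 12.7 to 24.4 CPM (log2 change 0.94 ± 0.12, edgeR adjusted p 0.00186). The chemokine CCL2 fell with a log2 fold change of -1.08 ± 0.20, and NFKBIZ, an inducible NF-kB cofactor, with -0.78 ± 0.14. CXCL3, which is outside this list, rose by 1.73 ± 0.22, and its reads cannot be told apart with certainty from its near-identical neighbours. Of 29 measured interferon response genes, 3 rose (10.3%) and 6 fell (20.7%). The share that rose was near the 9.07% of all genes tested. IFIT2 fell by 1.33 ± 0.24 and OASL rose by 0.77 ± 0.13. Without SBI477 replicate 3, 1 interferon gene fell, and IRF1, with a log2 fold change of -0.51, was among the lost calls. Without DMSO replicate 1, 11 fell, and without DMSO replicate 3, 7 rose in each of these lists. Among the cytokine genes, 5 fell without DMSO replicate 3 and 4 without SBI477 replicate 1.

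No measured member of the epithelial and lineage lists rose. Of 18 measured epithelial genes, 6 fell, and of 15 measured pancreatic and endodermal factors, 6 fell. ELF3, an epithelial transcription factor present in both lists, was at 59.8, 17.4 and 71.5 CPM in DMSO replicates 1, 2 and 3 and at 19.3, 74.5 and 13.7 CPM in SBI477 replicates 1, 2 and 3, with a log2 fold change of -1.98 ± 0.15 (edgeR adjusted p 0.000301). FOXA1, a pioneer factor of endoderm, was at 16.9, 4.91 and 15.4 CPM with DMSO and 5.54, 20.4 and 5.66 CPM with SBI-477 (-1.53 ± 0.15, edgeR adjusted p 0.000665). For both factors SBI477 replicate 2 was the highest of the 6 libraries. The keratins KRT8 and KRT18 fell from 823 to 559.7 CPM (-0.56 ± 0.08) and from 584 to 379 CPM (-0.62 ± 0.09), and were again highest in SBI477 replicate 2. NR5A2 and KLF5 fell with log2 fold changes of -0.43 ± 0.09 and -0.44 ± 0.10, calls lost without SBI477 replicate 3, when 2 lineage factors still fell. Without DMSO replicate 1, 10 epithelial genes fell.

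Matrix genes moved both ways. Of 25 measured mesenchymal and matrix genes, 5 rose and 5 fell. The fibrillar collagens fell: COL1A1 was at 23.5, 3.04 and 41.9 CPM with DMSO and 6.16, 41 and 6.5 CPM with SBI-477 (-2.37 ± 0.25, edgeR adjusted p 0.000906), COL1A2 at 6.98, 0.435 and 10.01 CPM with DMSO and 2.05, 8.61 and 0.487 CPM with SBI-477 (-2.67 ± 0.43, edgeR adjusted p 0.00469), and COL3A1 fell by 1.27 ± 0.26. CTGF, a matricellular protein, fell from 61.6 to 20.9 CPM (log2 change -1.57 ± 0.14, edgeR adjusted p 0.000527). MMP14, a membrane-bound collagenase, was at 4.19, 14.7 and 6.31 CPM with DMSO and 15.5, 4.37 and 19.2 CPM with SBI-477 (1.72 ± 0.21, edgeR adjusted p 0.00156). Fibroblast and stellate cell markers, which include these 3 collagens, summed to 104 to 363 CPM with DMSO and 162 to 293 CPM with SBI-477, and their part in the result was not tested. Of 7 measured markers in that list, 3 fell, which are the collagens, and 1 rose, PDGFRA, with a log2 fold change of 0.67 ± 0.12. In bulk RNA, fewer cells of a type and less RNA per cell cannot be told apart. Without DMSO replicate 1, 10 matrix genes fell, and without DMSO replicate 3, 9 rose.

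Genes of glucocorticoid activation and response changed in both directions. HSD11B1 (chr1:209686178-209734950, plus strand), which regenerates active cortisol from cortisone, was at 1.06, 11.2 and 1.45 CPM in DMSO replicates 1, 2 and 3 and at 11.3, 1.58 and 14.2 CPM in SBI477 replicates 1, 2 and 3. No gene averaging 4 CPM or more rose further, with a log2 fold change of 3.33 ± 0.23 (edgeR adjusted p 0.000176), and the replicate 2 libraries were again in the opposite order. Of 14 measured members of the glucocorticoid list, 6 rose and 4 fell. MT2A, a metallothionein that binds zinc and copper, was at 412, 1043 and 439 CPM with DMSO and 622, 444 and 819 CPM with SBI-477 (0.76 ± 0.12, edgeR adjusted p 0.00503), and MT1X, of the same family, rose by 0.89 ± 0.14. KLF9, a direct glucocorticoid receptor target, fell and was at 23.3, 8.61 and 28.2 CPM with DMSO and 8.17, 13.7 and 5.53 CPM with SBI-477 (-1.90 ± 0.18, edgeR adjusted p 0.000665), and the kinase gene SGK1 fell by 0.72 ± 0.14. The levels of MT2A and MT1X were highest in DMSO replicate 2.

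Among targets of xenobiotic and nuclear receptors, 4 of 14 measured members rose and 1 fell. CYP1B1, an oxidase induced through the aryl hydrocarbon receptor, was at 52.9, 133 and 65 CPM with DMSO and 154, 40.5 and 151 CPM with SBI-477 (1.37 ± 0.11, edgeR adjusted p 0.000301). DMSO replicate 2 and SBI477 replicates 1 and 3 were the 3 high libraries. TIPARP, another target of that receptor, rose by 0.34 ± 0.09, a call lost without any 1 of DMSO replicate 3, SBI477 replicate 1 and SBI477 replicate 3. UGT1A7, a glucuronosyltransferase outside this list whose reads overlap those of its gene cluster and are uncertain, rose by 1.94 ± 0.14. Without SBI477 replicate 3, 1 gene of the list rose and 0 fell, without SBI477 replicate 1, 2 rose and 4 fell, and without DMSO replicate 1, 4 fell.

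NRF2 targets rose more often than they fell, 8 against 1 of 19 measured, with a median log2 fold change of 0.30. The ferritin light chain FTL was at 3167, 6848 and 2919.6 CPM with DMSO and 5312, 3146 and 6590.1 CPM with SBI-477 (0.97 ± 0.12, edgeR adjusted p 0.00186), and the heavy chain FTH1 at 565, 1358 and 568 CPM with DMSO and 977, 482 and 1078 CPM with SBI-477 (0.86 ± 0.09, edgeR adjusted p 0.000906). Ferritin stores iron, and both genes have processed copies in the genome that make their counts uncertain. TALDO1, of the pentose phosphate pathway, rose by 0.67 ± 0.09. AKR1B10, an aldo-keto reductase, was the exception and fell by 1.96 ± 0.31. Leaving out 1 library gave 6 to 9 rises and 1 fall.

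Lysosome and autophagy genes rose in 10 of 27 measured members and fell in 1. SQSTM1 (chr5:179806398-179838078, plus strand), the autophagy receptor p62, was at 712, 1803 and 642 CPM in DMSO replicates 1, 2 and 3 and at 1290.2, 802 and 1585 CPM in SBI477 replicates 1, 2 and 3. DMSO replicate 2 held the highest level and the other DMSO libraries the lowest. The log2 fold change was 1.09 ± 0.12 (edgeR adjusted p 0.000915). The proton pump subunit ATP6V0D1 rose from 72.1 to 119.96 CPM (0.73 ± 0.09), and the sialidase NEU1 rose by 0.82 ± 0.13. Without SBI477 replicate 3, 6 members rose.

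**Figure D4:**
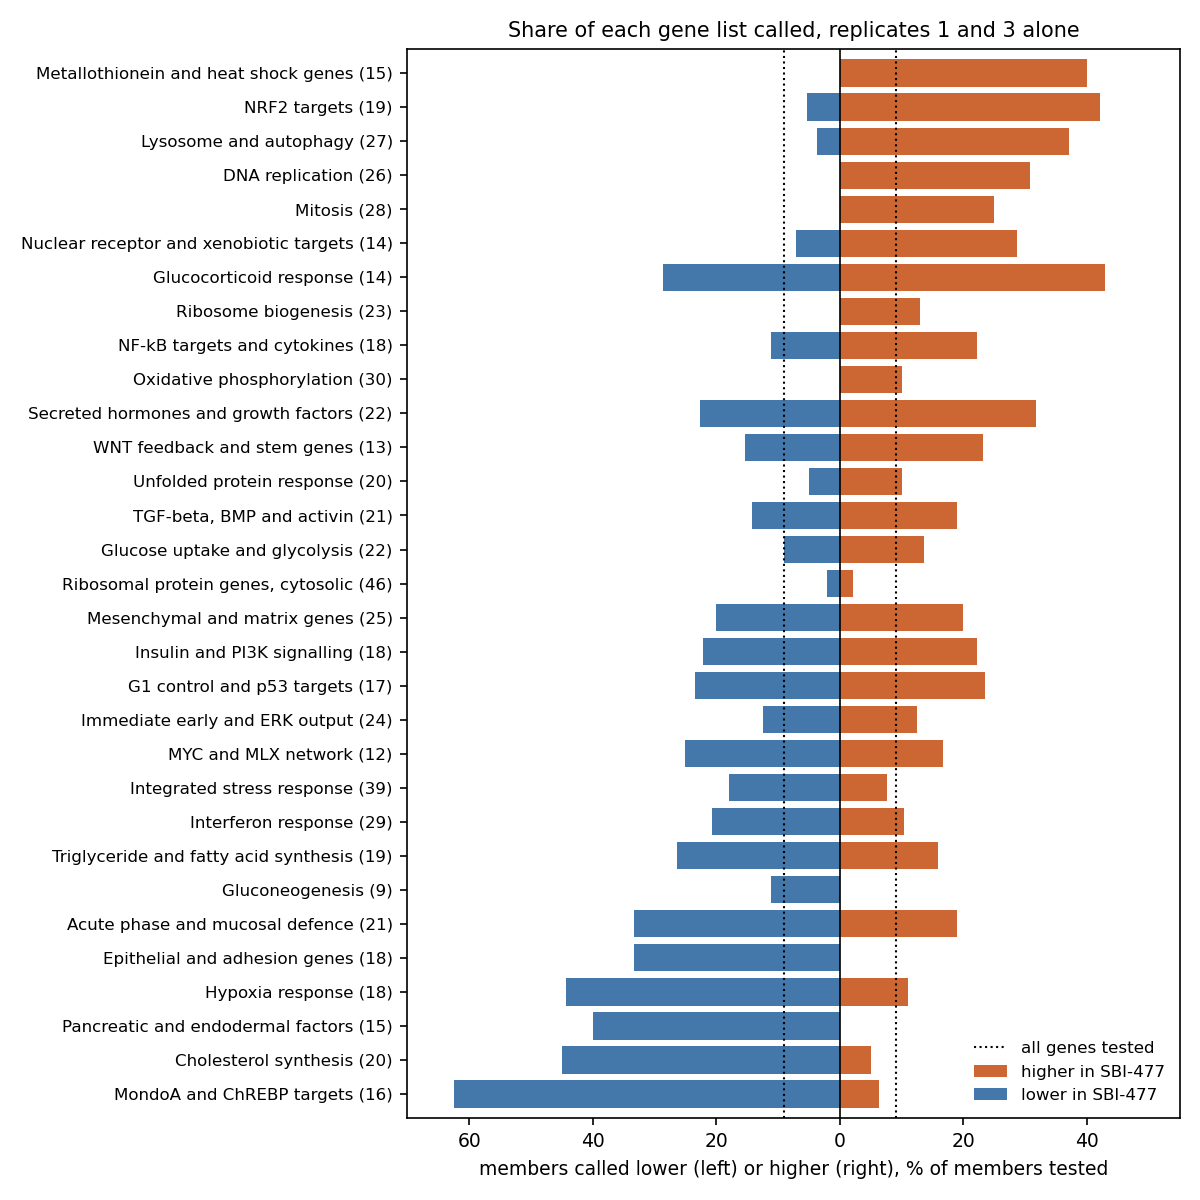
Share of measured members called higher (right) and lower (left) with SBI-477 in replicates 1 and 3, in percent on the horizontal axis, for each gene list on the vertical axis with all genes tested as the reference (9.07% higher and 9.02% lower). MondoA and ChREBP targets (62.5% lower), cholesterol synthesis (45% lower) and hypoxia response (44.4% lower) extend to the left, NRF2 targets are 42.1% higher and 5.26% lower, and glucocorticoid response extends to both sides (42.9% higher and 28.6% lower).

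Stress and growth factor signalling genes changed in part. In the integrated stress response, 7 of 39 measured members fell (17.9%) and 3 rose (7.69%), beside 9.02% and 9.07% of all genes tested. DDIT4, a brake on mTORC1, was at 175, 84.4 and 259.7 CPM with DMSO and 101, 196 and 89.8 CPM with SBI-477 (-1.19 ± 0.16, edgeR adjusted p 0.00236), the transcription factor ATF4 had a log2 fold change of -0.43 ± 0.09, and the glycine transporter SLC6A9 one of -0.54 ± 0.09. The authors' deposited table differed for this list, with 4 members higher and 2 lower. There ATF4 had a log2 fold change of -0.17 (adjusted p 0.455 in the authors' deposited table), TRIB3 one of -0.08 (0.783) and ASNS one of -0.04 (0.956). For ATF4, DMSO replicate 2 had the highest of the 6 levels. In the insulin and PI3K signalling list, 4 of 18 rose and 4 fell. The insulin receptor substrate IRS2 was at 0.62 ± 0.15 and RICTOR, a subunit of mTORC2, at -0.38 ± 0.09. The falls counted in this list include INSIG2 (-0.51 ± 0.12), an INSIG protein of sterol control rather than a signalling gene. Without SBI477 replicate 3, 0 of this list rose and 2 fell, the calls of IRS2 and RICTOR being among those lost. Without SBI477 replicate 1, 1 rose, and without DMSO replicate 1, 6 fell. In the stress list, leaving out DMSO replicate 1 gave 6 rises and leaving out SBI477 replicate 3 gave 1.

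Some genes of DNA replication and mitosis rose, and none of those listed fell. Of 26 measured DNA replication genes, 8 rose: CCNE1, the cyclin of S phase entry, was at 37, 65.2 and 34.4 CPM with DMSO and 62.1, 46 and 62.9 CPM with SBI-477 (0.81 ± 0.09, edgeR adjusted p 0.000992), and RRM2, a subunit of ribonucleotide reductase, at 238, 483 and 173 CPM with DMSO and 389, 259 and 411 CPM with SBI-477 (0.96 ± 0.13, edgeR adjusted p 0.00262). CDC6, which licenses origins, rose by 0.71 ± 0.13. Relative to the mean of DMSO replicates 1 and 3, the median over the replication list was 0.13, 0.28 and -0.13 in DMSO replicates 1, 2 and 3. It was 0.20, 0.26 and 0.25 in SBI477 replicates 1, 2 and 3. SBI477 replicate 2 thus did not lie with DMSO replicates 1 and 3 for this list, and those 2 libraries differed from each other. Of 28 measured mitosis genes, 7 rose, among them CCNA2 by 0.43 ± 0.10 and BIRC5 by 0.43 ± 0.10. Without SBI477 replicate 3, 1 mitosis gene rose, and without SBI477 replicate 1, 4. Without DMSO replicate 1, 17 replication genes rose. Of 17 measured G1 and p53 target genes, 4 rose and 4 fell, the latter being CCNG1, BBC3, CDKN1B and CDKN1C. Among those that rose, CDKN1A, the inhibitor p21, went from 4.29 to 9.13 CPM (log2 change 1.09 ± 0.20, edgeR adjusted p 0.00754), and CCND3, a D-type cyclin, rose by 0.78 ± 0.09. No cell counts accompany the libraries.

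Secreted hormones, growth factors and their binding proteins changed both ways, with 7 of 22 measured rising and 5 falling. IGFBP1, which binds insulin-like growth factors, was at 17.7, 62.8 and 17.8 CPM with DMSO and 44.6, 17.1 and 46.2 CPM with SBI-477 (1.36 ± 0.09, edgeR adjusted p 0.000176). The EGF receptor ligand EREG rose from 224 to 435 CPM (0.96 ± 0.09), and IGFBP6 fell from 59.1 to 29.8 CPM (-0.98 ± 0.10). GREM1, a secreted BMP antagonist, was at 5.25, 21.8 and 5.02 CPM with DMSO and 24.4, 5.57 and 29.1 CPM with SBI-477 (2.38 ± 0.14, edgeR adjusted p 0.000108). GREM1 is counted in the TGF-beta, BMP and activin list given further below, not among the 7 rises. The low libraries for GREM1 were DMSO replicates 1 and 3 and SBI477 replicate 2. Without DMSO replicate 1 or without SBI477 replicate 1, 8 members of the secreted list fell, and without SBI477 replicate 3, 3 fell.

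Further genes among the 12 largest changes each way had varied roles. LAPTM5, a lysosomal membrane protein best known from blood cells, was at 51.9, 249.98 and 61.7 CPM with DMSO and 189.8, 58.2 and 183 CPM with SBI-477 (1.72 ± 0.10, edgeR adjusted p 0.000108). SPP1, the secreted phosphoprotein osteopontin, rose by 1.78 ± 0.30, SCG5, a granule chaperone, by 1.93 ± 0.27, and C10orf90 by 1.73 ± 0.22. RARRES1 fell from 38.7 to 4.97 CPM (log2 change -2.94 ± 0.37, edgeR adjusted p 0.00178). Log2 fold changes were -2.37 ± 0.37 for MXRA5, a matrix protein, -2.40 ± 0.28 for PPFIA4 and -2.27 ± 0.39 for the adhesion molecule CEACAM1, which fell too. The RNA components of RNase P and RNase MRP, RPPH1 and RMRP, rose by 1.91 ± 0.30 and 1.63 ± 0.33, and SBI477 replicate 1 held the highest level of both, 13.3 and 11.4 CPM. In the authors' deposited table RPPH1 and RMRP had adjusted p-values of 0.235 and 0.343.

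Levels in replicates 1 and 3 did not move by equal steps in every group. The median log2 difference of SBI477 replicate 1 from DMSO replicate 1 was -0.45 over cholesterol synthesis, against -0.20 for replicate 3. Over hypoxia genes the medians were -0.26 and -0.53, and over DNA replication genes 0.07 and 0.38. Over acute phase and mucosal genes they differed in sign, 0.31 and -1.09, while MondoA and ChREBP targets were at -0.43 and -0.33. Each such difference is 1 library against 1, and same-numbered libraries of replicates 1 and 3 did not deviate together, so these values carry no test.

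**Figure D5:**
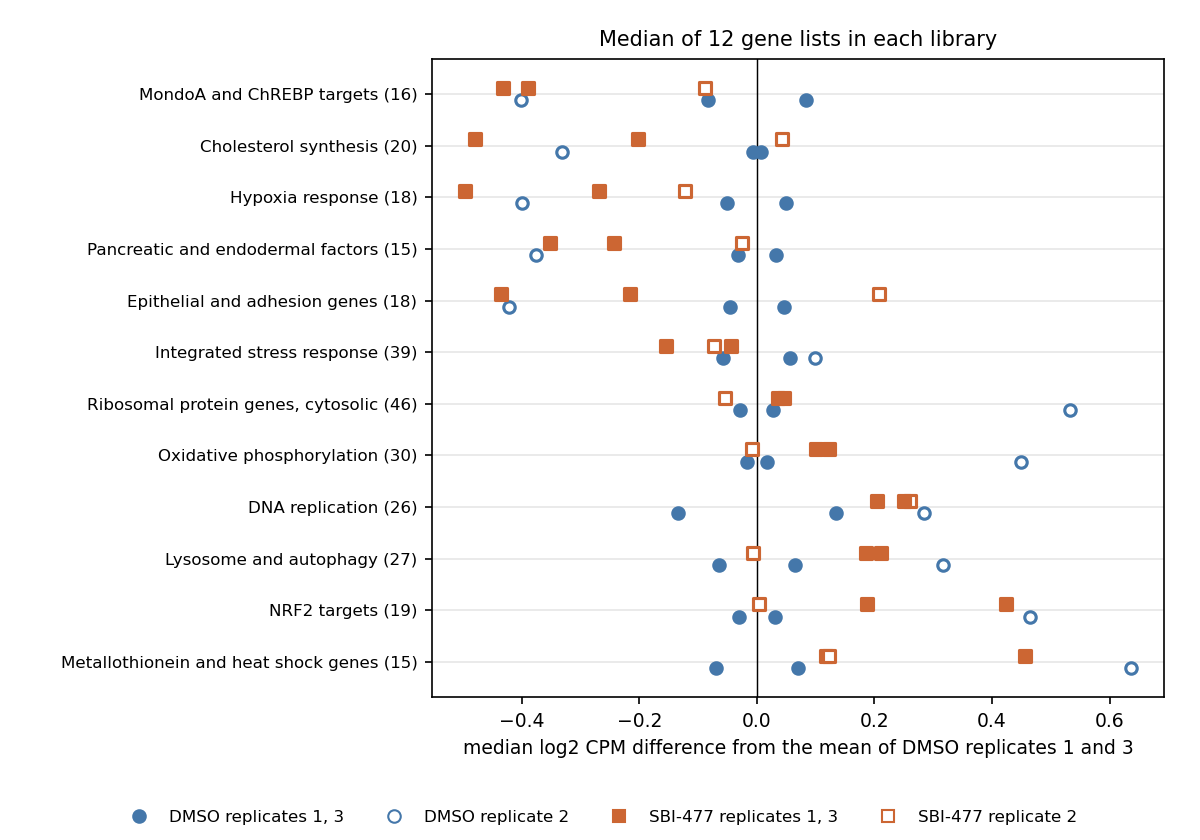
Median over each list's measured members of the log2 CPM difference from the mean of DMSO replicates 1 and 3 (horizontal axis), with 12 lists in rows and 1 point for each of the 6 libraries. DMSO replicate 2 resembles SBI477 replicates 1 and 3 in MondoA and ChREBP targets (-0.40 against -0.43 and -0.39) and stands apart from every other library in ribosomal protein genes (0.53).

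Markers of the labelled cell type were present at uneven levels. All 8 PDAC epithelium markers were measured, with sums of 1520 to 2130 CPM with DMSO and 1430 to 2430 CPM with SBI-477, and 4 of the 8 fell. The keratins KRT8, KRT18, KRT7 and KRT19 averaged 823, 584, 457 and 160 CPM in DMSO replicates 1 and 3. EPCAM averaged 34.6 CPM there, MUC1 6.30, CEACAM6 4.96 and CDH1 2.49, so the sums mostly reflect keratins. Among markers of other cells, 3 of 8 acinar genes (CELA3A, AMY2A and PNLIP) and 3 of 9 immune genes (CD3E, CD3D and MS4A1) were at 0 in every library. Acinar markers summed to 3.56 to 16 CPM with DMSO and 3.45 to 9.81 CPM with SBI-477, and PRSS1 fell with a log2 fold change of -1.82 ± 0.31. Immune markers summed to 51.5 to 78.1 CPM with DMSO and 52.4 to 83.8 CPM with SBI-477, and 2 of the 4 measured rose, CD68 (1.02 ± 0.14) and CSF1R (1.17 ± 0.23). The other 2, CD14 (-0.32 ± 0.13) and LYZ (-0.42 ± 0.28), did not pass. Endothelial markers summed to 27.2 to 36.6 and 29.4 to 40.5 CPM. The part of other cells in the results was not tested.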

How the data were processed

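Reads of 6 PSN-1 libraries were used, 3 per group by the titles in the labels. Per the labels' protocols, RNA was extracted with Direct-zol kits and Kapa libraries were sequenced as paired reads on an Illumina HiSeq instrument. The sources used here do not say whether strand was kept, so overlapping and antisense genes cannot be told apart. The submitters' processing notes name HTSeq 0.6.1 beside TopHat2 2.1.0, bcl2fastq 1.8.4 and edgeR, and list mm10 as well as hg38. The short paired reads of near-identical genes cannot be placed apart with certainty, so values of UGT1A7, CXCL3, FTH1, FTL, HSPA8 and ribosomal protein genes are uncertain.

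The authors deposited a raw read count per gene and library for 26485 gene symbols, per the file headers. The same deposited table holds the authors' own comparison, per the file headers: log2 fold changes and p-values, raw and adjusted. The tool behind it is not stated. DESeq2 1.42.0 without a replicate term was refitted to all genes with any count, with the labels and with each of 9 exchanges. Genes whose mean normalized count passed 20 were then compared with the deposited log2 fold changes. A replicate term had been planned, and with it the exchange of the replicate 2 libraries left a median absolute difference of 0.00446.

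Counts were tested in R 4.3.3 with edgeR 4.0.16 (limma 3.58.1): filterByExpr, TMM scaling, the quasi-likelihood test without a replicate term, and Benjamini-Hochberg adjustment over all genes tested, with a threshold of 0.05. The standard error of each log2 fold change was derived from the test. It is the absolute log2 fold change divided by the square root of the quasi-likelihood F statistic. CPM use TMM factors, and log2 CPM a prior count of 2. Floors of 3 counts cover counting error only. Counts of replicates differed by 8.37 to 93.4 in chi-square per degree of freedom, so no library was a copy of another in its labelled group. Pairs across the groups were not compared in this way. The scripts were checked on simulated data. Plots used Python 3.11.15 and matplotlib 3.10.9. Gene positions are from GENCODE v29 on GRCh38.

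The members, the 36 gene lists (723 distinct genes, all matched by symbol) and the choice to leave out replicate 2 were made with earlier results of these data known. Named genes are the 4 markers given with the comparison, the members of the MondoA target and MYC network lists, the 12 largest rises and falls with at least 4 CPM on average and no overlap, and up to 4 members per other list with the smallest adjusted p. Which of these candidates appear was decided after values were seen, as was the naming of FGA, TIGD1, P4HA1 and KCTD5, and some candidates are not reported here. Alternatives were another scaling, DESeq2, filters, a replicate block and leaving out each library.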

Additional observations from a re-analysis of the deposited data

How the results depend on the processing

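As labelled, 0 genes were called with every alternative run: edgeR with RLE size factors (405 genes at an unadjusted p under 0.05), DESeq2 (453), no filter on low counts (498), a stricter filter of 1 CPM (364), the replicate block (113), and leaving out each library in turn (99 to 2226). In replicates 1 and 3, the 2575 calls became 2595 with RLE size factors, 2329 with DESeq2, 3658 with no filter and 2496 with the stricter filter. Leaving out 1 library gave 1194 to 4319 calls, the lowest without SBI477 replicate 3 and the highest without DMSO replicate 1. Of 120 named genes called, 103 were called in each of these 4 fits, and none changed sign under any alternative. The call of COL3A1 was lost with DESeq2, as were those of ARRDC2 and MNT.

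Over all 6 libraries, deviations of same-numbered libraries from their labelled group means correlated at -0.262, -0.575 and -0.585. Each replicate 2 library lay on the side of the other group, which by itself makes such values negative. They therefore cannot show whether replicate numbers paired the samples. In replicates 1 and 3 alone the correlation was -0.268, so same-numbered libraries there did not deviate together. With the replicate block, 2288 genes were called in replicates 1 and 3, and the calls of ARRDC2, MNT, MLX, PKM and TPI1 were lost. With crossed pairing, chosen after seeing the data, 4989 genes were called. The limit set by depth was 0.129 CPM or less in each library, and with 2 libraries a group the spread between replicates was estimated from few values.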

Other observations

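Further gene groups were counted in replicates 1 and 3. In TGF-beta, BMP and activin signalling, 4 of 21 measured members rose and 3 fell, beside 9.07% and 9.02% of all genes tested, with TGFB2 falling from 135 to 90.4 CPM (log2 fold change -0.58 ± 0.09, edgeR adjusted p 0.00377). Among WNT feedback and stem genes, 3 of 13 rose and 2 fell. PORCN, the acyltransferase that WNT ligands need for secretion, rose from 38.6 to 73 CPM (log2 change 0.92 ± 0.12, edgeR adjusted p 0.00229), and ALDH1A3, which makes retinoic acid, from 156 to 320.3 CPM (log2 change 1.04 ± 0.09, edgeR adjusted p 0.00031). Of 24 immediate early and ERK output genes, 3 rose and 3 fell: JUN rose from 65.1 to 129.7 CPM (0.99 ± 0.13) and ETV4 fell from 77.7 to 48.7 CPM (-0.67 ± 0.09). Metallothionein and heat shock genes rose in 6 of 15 measured members and none fell, with the chaperone HSPA8 at 2350.4, 3641 and 1915 CPM with DMSO and 3262, 2868 and 3903 CPM with SBI-477 (0.75 ± 0.13, edgeR adjusted p 0.00619), and 3 rose without SBI477 replicate 3 against 11 without DMSO replicate 1. In the unfolded protein response, 2 of 20 rose (10%) and 1 fell (5%), with CRELD2 at 0.59 ± 0.09.

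DMSO replicate 2 stood apart from all other libraries in translation and respiration genes. Relative to the mean of DMSO replicates 1 and 3, its median log2 level was 0.53 over 46 ribosomal protein genes and 0.45 over 30 oxidative phosphorylation genes, while the other 5 libraries lay between -0.06 and 0.05 and between -0.02 and 0.12. In replicates 1 and 3 alone, 1 ribosomal protein gene rose and 1 fell (2.17% each). Of the oxidative phosphorylation genes 3 rose (10%, beside 9.07% of all genes tested), with NDUFB10 at 0.54 ± 0.10. Of 23 ribosome biogenesis genes 3 rose, with RRS1 at 0.59 ± 0.13, against 18 without DMSO replicate 1 and 1 without SBI477 replicate 3. Summed levels of RMRP, RPPH1 and the 7SL and 7SK RNAs were 85.6 CPM in SBI477 replicate 1 and 24.7 to 49.5 CPM in the other libraries. The part of these library differences in the calls was not tested.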
